A study of Oryza sativa Indica Group and Oryza sativa Japonica Group with 20 samples.

Results

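Wide H3K27me3 regions lying away from H3K4me3 were described in male meiocytes of 2 rice cultivars, Azucena, labelled as japonica rice, and IR64, labelled as indica rice, both wild type. The peaks of both replicates of a mark were merged within a cultivar on chromosomes 1 to 12, and merged regions that held a peak of each replicate were called reproducible. A wide far region was a reproducible H3K27me3 region at least 1500 bp wide whose gap to the nearest reproducible H3K4me3 region was over 1000 bp. These made up 2222 of 23091 reproducible H3K27me3 regions, 1732 of 14872 in Azucena and 490 of 8219 in IR64. The regions were thus chosen by their measured width and gap, whose values are given as descriptions. The study pressed clusters of meiocytes, the cells that undergo meiosis, out of anthers during meiotic prophase I and profiled them by CUT&Tag, in which an antibody directs a transposase to cut and tag the chromatin around a histone mark. Per the labels' protocol no somatic cells were taken along, which could not be checked on marker genes without an annotation. Each cultivar had 2 H3K27me3 and 2 H3K4me3 libraries. The labels do not tie replicates to different plants, so a p-value reflects no more than library-to-library spread, possibly technical.

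H3K27me3 is laid down by Polycomb repressive complex 2, an enzyme complex conserved between plants and animals. In plants the mark covers mostly silent genes, among them many developmental regulators, and often spans the transcribed part of a gene. H3K4me3 marks the 5′ ends of transcribed genes and is rarely found on stably silent ones. No annotation of the coordinates was used, so the regions carry no gene names.

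The background coverage of the H3K27me3 lists separated the cultivars, while the number of aligned reads did not. The Azucena H3K27me3 libraries held 10.11 and 10.28 M uniquely aligned reads (M, 1000000 reads) in the authors' table, and the IR64 libraries 47.91 and 9.0 M. The genome-wide background coverage recovered from the peak lists was 6.08 and 5.90 reads in Azucena, against 2.40 and 1.85 reads in IR64. IR64 replicate 1 thus had the most reads but a lower background than either Azucena library, so 47.91 M may not be the depth behind its list, and how many reads entered the peak calling is not given in the sources used here. The 4 H3K4me3 libraries had a background of 6.28 and 6.58 reads in Azucena and 7.71 and 7.01 reads in IR64. Positions are 1-based. Each cultivar's lists have their own coordinate system, of a build not given in the sources used here, and positions were not matched between Azucena and IR64.

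Wide far regions were more numerous in Azucena than in IR64. They formed 11.6% of the reproducible H3K27me3 regions of Azucena (95% Wilson interval 11.1 to 12.2) and 5.96% of those of IR64 (5.47 to 6.49). Among far regions alone, 19.6% in Azucena and 12.2% in IR64 reached the width. They covered 3.42 Mb in Azucena, 20.1% of the length of all H3K27me3 regions, and 0.897 Mb or 10.6% in IR64. Intervals of this kind cover counting error only.

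The same count was made in single libraries, by taking the peaks of 1 H3K27me3 library that reached the width and the gap. Replicates 1 and 2 of Azucena gave 1390 and 1234 of them, and those of IR64 gave 332 and 197. All Azucena libraries lay above all IR64 libraries. The means were 1312 ± 110 in Azucena and 264.5 ± 95.5 in IR64 (SD, n = 2 each), a ratio of 4.96 with a two-sided exact permutation p of 0.333, the smallest that 2 against 2 libraries allow (0.424 after Benjamini-Hochberg adjustment over 14 measures). As a share of far peaks they made up 12.3% ± 1.15 in Azucena and 4.14% ± 0.533 in IR64 (SD, n = 2 each; exact permutation p 0.333). The background coverage moved with this difference, and its part in it was not tested. The ratio of reproducible regions, 3.53, moved with the libraries used. With 1 replicate of both marks left out, so that this cultivar had unmerged peaks, it was 2.18 without Azucena replicate 1, 9.41 without IR64 replicate 1 and 6.01 without IR64 replicate 2.

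Most wide far regions were not much wider than the threshold. Their median width was 1861 bp in Azucena (25th to 75th percentile 1666 to 2156) and 1738 bp in IR64 (1612 to 1940). Widths under 2000 bp made up 63.7% of them in Azucena and 78.8% in IR64. Only 58 regions in Azucena and 2 in IR64 reached 3000 bp. The widest was 4474 bp long in Azucena and 3815 bp in IR64.

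Replicates differed in how they built up the width. A single peak reached 1500 bp in both replicates in 56.9% of the Azucena and 25.5% of the IR64 regions. In 640 regions of Azucena and 273 of IR64 this held for 1 replicate. In the remaining 107 Azucena and 92 IR64 regions, 6.18% and 18.8%, no single peak was that wide and the width came from merging. The peaks of Azucena replicates 1 and 2 covered a median of 97.4% and 94.6% of a region, and those of IR64 covered 94.6% and 81.6%. At least 2 peaks lay in 6.06% and 13.7% of the Azucena regions and in 8.98% and 16.7% of the IR64 regions, in replicates 1 and 2, against 0.592% and 0.747% of the narrower far regions in Azucena and 0.536% and 0.847% in IR64. Wide far regions were thus split into several peaks more often in replicate 2 of both cultivars. With each region divided into 3 equal stretches, the summit fell in the middle one in 42.0% and 40.9% of wide far regions in Azucena and 40.8% and 35.1% in IR64. Narrower far regions had it there in 56.5% and 55.3% of cases in Azucena and 53.6% and 51.0% in IR64.

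The deposited fold compares a peak's summit with its local background. It was higher in wide far regions than in narrower far regions of the same library. Narrower far regions passed the same gap and stayed under 1500 bp, and numbered 7099 in Azucena and 3542 in IR64. In Azucena the median highest fold was 4.13 and 4.25 in wide far regions of replicates 1 and 2, against 3.26 and 3.37 in narrower ones. In IR64 it was 4.39 and 4.44 in wide far regions, against 4.02 and 4.12 in narrower ones. The ratio was 1.17 over 4 libraries (geometric mean) and above 1 in all 4. Fold and width come from the same reads, so this is given as a description. The ratio depended on a peak threshold: among peaks with a fold of at least 4 it was 0.976 and below 1 in all 4 libraries. That threshold cut the compared fold at 4 in both classes. It also dropped weaker H3K4me3 peaks and so changed which regions were far. In Azucena replicate 1 the median gap of wide far peaks went from 5782.5 to 15127 bp. Among peaks of both marks with a −log10 q of at least 5 the fold ratio was 1.19 and 1.18 in Azucena but 1.00 and 0.98 in IR64. Summit coverage and local background were both higher in wide far regions. In Azucena replicate 1, for example, the median summit held 81.0 reads over a local background of 17.8 in wide far regions, and 51.0 reads over 13.2 in narrower ones.

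With all peaks the fold ratio was larger in Azucena than in IR64, with no overlap between libraries. It was 1.26 ± 0.00366 in Azucena and 1.09 ± 0.00884 in IR64 (SD, n = 2 each). With the 10000 strongest H3K27me3 peaks per library, it was 1.073 and 1.063 in Azucena and 1.038 and 1.062 in IR64. That setting was chosen after the data were seen. Among peaks with a fold of at least 4 the cultivars overlapped, at 0.983 and 0.973 in Azucena and 0.968 and 0.981 in IR64. Wide regions close to H3K4me3, at a gap of at most 1000 bp or overlapping it, numbered 1892 in Azucena and 778 in IR64. Their median fold was 4.39 and 4.57 in Azucena and 4.53 and 4.57 in IR64, above that of the wide far regions in each of the 4 libraries. No test was run on this last difference.

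**Figure D1:**
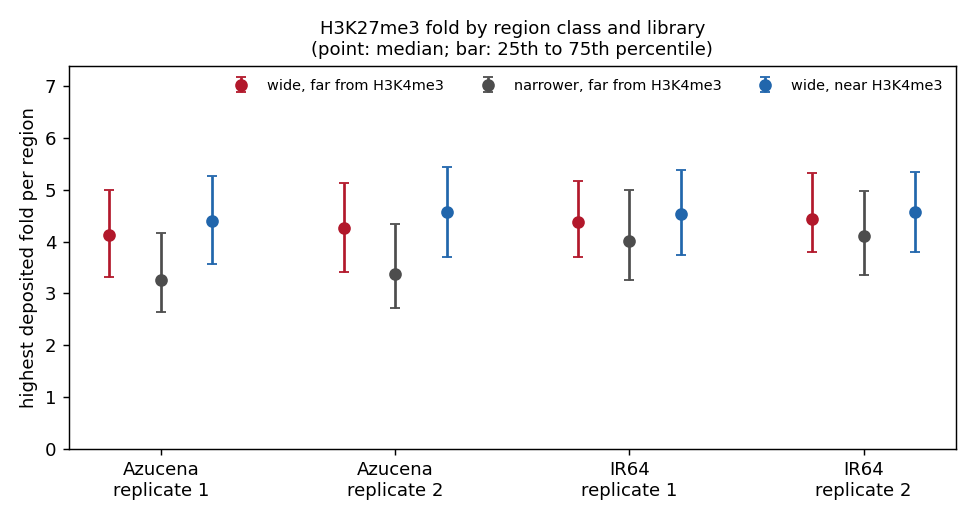
Highest deposited fold per H3K27me3 region (vertical axis, a ratio) in each library, for wide far regions, narrower far regions and wide regions near H3K4me3. Points are medians over regions and bars run from the 25th to the 75th percentile. Wide far regions lie above narrower ones in every library, by more in Azucena (4.13 and 4.25 against 3.26 and 3.37) than in IR64 (4.39 and 4.44 against 4.02 and 4.12).

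Within the wide far regions the fold did not increase with width. The median fold of replicate 1 was 4.23 in Azucena regions under 2000 bp, 4.15 from 2000 bp, 3.84 from 2500 bp and 3.53 from 3000 bp. In IR64 it was 4.46, 4.28 and 3.98 in the first 3 classes, and the 2 regions from 3000 bp had a median of 2.89. Wider members thus had slightly lower folds. Across regions Spearman's rho of width and fold was -0.12 and -0.10 in Azucena replicates 1 and 2 and -0.10 and -0.12 in IR64. The folds of replicates 1 and 2 had a rho of 0.903 in Azucena over 1732 regions and 0.773 in IR64 over 490. These are descriptions across regions that share libraries.

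Folds of the wide far regions stayed under 10 in all 4 libraries. The highest were 8.91 and 9.04 in Azucena replicates 1 and 2 and 8.94 and 7.36 in IR64. Narrower far regions reached 30.0 and 30.5 in Azucena and 19.1 and 18.2 in IR64. Wide regions near H3K4me3 had much the same limit as wide far ones, at 9.47 and 9.54 in Azucena and 9.91 and 10.4 in IR64.

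The 5 strongest wide far regions of Azucena had mean folds of 8.12 to 8.98. The first lay on chromosome 6, 17442679 to 17444309, with folds of 8.91 and 9.04 and summits of 112 and 104 reads. Next came chromosome 1, 26157354 to 26159418 (8.22 and 8.87), and chromosome 6, 12829722 to 12831409 (7.72 and 8.69). Chromosome 5, 29363844 to 29365359, had folds of 7.58 and 8.71, and chromosome 8, 24976811 to 24978329, had 8.01 and 8.22. The SD between the replicates was at most 0.803 at these 5. Of the 5, 4 overlapped an H3K4me3 peak that was not part of a reproducible region, the chromosome 5 region being the exception. Among all wide far regions of Azucena 19.7% overlapped or touched such a peak.

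In IR64 the 5 strongest had mean folds of 6.96 to 7.91. The first was chromosome 9, 2320592 to 2322099, with folds of 8.94 and 6.88 and summits of 41 and 29 reads. It was followed by chromosome 4, 26533999 to 26535667 (8.23 and 6.15), and chromosome 4, 6734250 to 6735801 (6.99 and 7.17). The others were chromosome 1, 27741833 to 27743571 (6.85 and 7.21), and chromosome 2, 34605277 to 34607125 (8.84 and 5.08). Replicates lay farther apart, with an SD of 2.65 at the chromosome 2 region, where the peak was 975 bp wide in replicate 1 and 1849 bp in replicate 2. Of these 5, only the region at 26533999 on chromosome 4 overlapped an H3K4me3 peak of any replicate. Among all wide far regions of IR64 19.2% overlapped or touched one.

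The widest regions had moderate or low folds. In Azucena they were chromosome 2, 27982418 to 27986891 (4474 bp, folds 2.57 and 2.67), chromosome 1, 34728060 to 34731954 (3895 bp, 4.24 and 4.32), and chromosome 2, 10216626 to 10220427 (3802 bp, 2.65 and 2.51). Those at chromosome 3, 2017083 to 2020881 (3799 bp), and chromosome 3, 12870310 to 12874107 (3798 bp), had folds of 2.97 and 2.71 and of 2.95 and 3.38. The local background at these 5 sites was 34.2 to 54.7 reads, above the 5.90 and 6.08 reads of the whole genome.

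In IR64 the widest region was chromosome 6, 32368212 to 32372026 (3815 bp). Its folds were 1.93 and 1.77 over a local background of 171 and 130 reads, and replicate 2 covered 1291 bp of it. The others were chromosome 11, 754037 to 757089 (3053 bp, folds 3.84 and 3.69), and chromosome 4, 26968796 to 26971783 (2988 bp, 4.11 and 4.44). Chromosome 3, 7021043 to 7024013 (2971 bp), had folds of 3.16 and 3.51, and chromosome 10, 12514551 to 12517476 (2926 bp), had 4.09 and 3.98. A local background over 10 times that of the genome was found in 23 and 22 of the 1732 Azucena wide far regions. In IR64 it was found in 10 and 12 of the 490. It was not particular to wide far regions, being found in 56 and 48 of 7099 narrower far regions in Azucena. In IR64 the counts were 56 and 82 of 3542 narrower ones.

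Distance to H3K4me3 beyond the required 1000 bp was close to the same in wide and narrower far regions. The median gap was 5761.5 bp in wide far regions and 5775 bp in narrower ones in Azucena, and 5685.5 bp in wide and 5698.5 bp in narrower ones in IR64. Gaps up to 2000 bp were found for 12.1% of wide far regions in Azucena and 12.9% in IR64. Gaps over 20000 and up to 50000 bp were found for 161 in Azucena and 30 in IR64. Few wide far regions were thus isolated from H3K4me3 on a larger scale. In single libraries the median gap of wide and narrower far peaks was 5782.5 and 5781 bp in Azucena replicate 1, and 5875.5 and 5735 bp in Azucena replicate 2. It was 5827 and 6490 bp in IR64 replicate 1, and 5539 and 5541 bp in IR64 replicate 2. The ratio was 0.979 over 4 libraries, above 1 in 2 and below 1 in 2, and ran from 0.936 to 1.02 over 14 alternative settings. The gap was part of the choice of both classes, so no test is given.

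**Figure D2:**
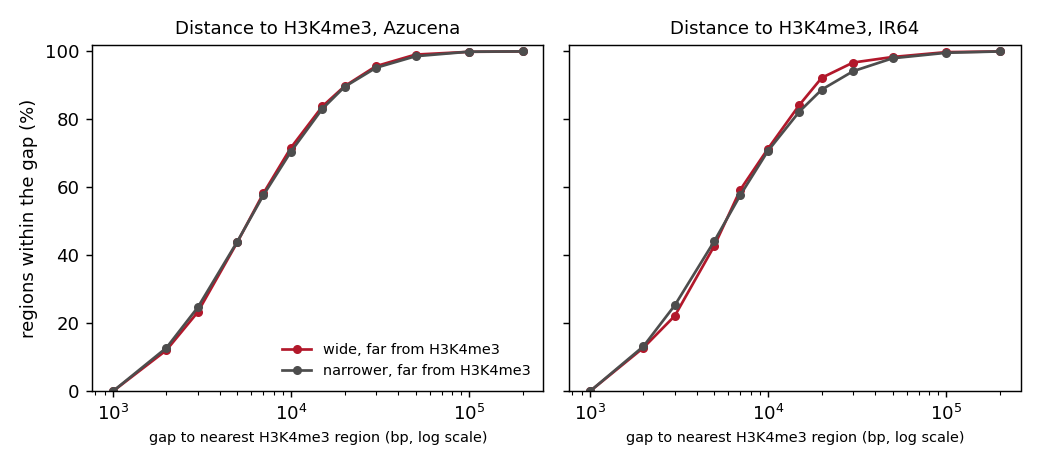
Cumulative share of wide and narrower far H3K27me3 regions (vertical axis, %) within a given gap to the nearest reproducible H3K4me3 region (horizontal axis, bp, log scale) in Azucena and IR64. The curves of the 2 classes nearly coincide, with 71.7% of wide and 70.5% of narrower far regions within 10000 bp in Azucena and 71.4% and 70.8% in IR64.

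Fold and width of the wide far regions were nearly unrelated to the distance from H3K4me3. Spearman's rho of gap and fold was 0.05 and 0.06 in Azucena replicates 1 and 2 and 0.01 in both IR64 replicates, and that of gap and width was 0.01 in Azucena and -0.04 in IR64. Median fold in Azucena replicate 1 was 4.11 at gaps up to 2000 bp and 4.41 at 20000 to 50000 bp, and in IR64 replicate 1 it was 4.37 and 4.57. The nearest H3K4me3 region lay towards the chromosome start for 889 Azucena and 242 IR64 regions, and towards the end for 843 and 248.

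The most isolated wide far regions sat over 50000 bp from H3K4me3, 16 in Azucena and 8 in IR64. The farthest in Azucena was chromosome 10, 988197 to 990747, at a gap of 124828 bp and with folds of 4.83 and 4.84. It was followed by chromosome 7, 13905699 to 13907340 (gap 102782 bp), chromosome 9, 7264041 to 7265571 (82769 bp), chromosome 9, 8100263 to 8101922 (75954 bp), and chromosome 2, 22165062 to 22166915 (67858 bp). Both chromosome 9 regions overlapped an H3K4me3 peak that was not reproducible, and the chromosome 10 region had one at 5060 bp. In IR64 the farthest were chromosome 4, 5496368 to 5498076 (gap 100924 bp, folds 5.82 and 4.51), and chromosome 4, 13226351 to 13228114 (77006 bp, 7.53 and 6.21). Then came chromosome 12, 23160746 to 23162255 (73770 bp), chromosome 6, 17780771 to 17782581 (62358 bp), and chromosome 9, 10394950 to 10397088 (59056 bp). None of these 5 IR64 regions overlapped an H3K4me3 peak of either replicate. The share over all wide far regions was 19.7% in Azucena and 19.2% in IR64, so 5 regions tell little about a difference.

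Not all wide far regions were free of H3K4me3 calls, since the rule counted reproducible H3K4me3 regions only. In Azucena 341 of 1732 (19.7%, 95% Wilson interval 17.9 to 21.6) overlapped or touched an H3K4me3 peak of at least 1 replicate, and in IR64 94 of 490 (19.2%, 15.9 to 22.9). Narrower far regions did so in 10.2% (9.52 to 10.9) of cases in Azucena and 14.4% (13.3 to 15.6) in IR64. H3K4me3 replicates 1 and 2 gave such peaks in 8.55% and 12.1% of the wide far regions of Azucena, against 4.38% and 5.96% of the narrower ones. In IR64 the shares were 13.9% and 5.92% of wide far regions, against 9.49% and 5.11% of narrower ones. The share was higher in wide far regions for all 4 H3K4me3 libraries, by a mean of 3.88 percentage points. Width and these H3K4me3 lists were part of the choice of the regions, so no test is given. Wide regions offer more length to overlap. Per covered kb the order turned round. The ratio of wide to narrower far regions was 0.703 and below 1 in all 4 libraries. A region counted once, and a peak needed only to touch it, so this value tends to fall with width by construction. It is given as a description.

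These H3K4me3 peaks had lower folds and widths than H3K4me3 peaks as a whole, which include the reproducible ones that the rule keeps away from far regions. In wide far regions their median fold was 3.02 and 2.90 in Azucena and 2.76 and 2.75 in IR64, against 3.70 and 3.64 for all H3K4me3 peaks of the same Azucena libraries and 3.52 and 3.38 for those of IR64. Their median width was 425 and 438 bp in Azucena and 439 and 419.5 bp in IR64, where all H3K4me3 peaks had 822 and 831 bp in Azucena and 826 and 800 bp in IR64. Narrower far regions held peaks of much the same kind, with median folds of 2.89 and 2.90 in Azucena and 2.82 and 2.87 in IR64 and median widths of 403 and 418.5 bp in Azucena and 411 and 362 bp in IR64. Wide far regions that held such a peak had a median H3K27me3 fold of 4.30 and 4.36 in Azucena, and those without it 4.09 and 4.23. In IR64 the values were 4.54 and 4.48 with it and 4.37 and 4.44 without it. Without every H3K27me3 region that lies within 1000 bp of an H3K4me3 peak of either replicate, 1360 wide far regions were left in Azucena and 385 in IR64.

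Stretches of 20000 to 50000 bp between neighbouring H3K4me3 regions held the most wide far regions per Mb in both cultivars. A stretch needs 3502 bp to hold a wide far region with its margins, and 22172 in Azucena and 23061 in IR64 were long enough. Of these, 1521 in Azucena (6.86%) and 468 in IR64 (2.03%) held at least 1. At 20000 to 50000 bp there were 7.29 wide far regions per Mb in Azucena and 2.34 in IR64. Stretches of 100000 bp or more had 2.75 per Mb in Azucena and 0.554 in IR64. Those under 10000 bp had 2.14 per Mb in Azucena and 0.535 in IR64. Per Mb of the length inside the margins, the values from the shortest to the longest class were 4.84, 8.10, 8.25, 5.77 and 2.81 in Azucena and 1.22, 2.17, 2.66, 1.70 and 0.566 in IR64. Per Mb of whole stretch narrower far regions ranked the classes as wide ones did in Azucena. Narrower ones went from 10.7 per Mb in the shortest class over 29.7 in stretches of 20000 to 50000 bp to 11.1 in the longest. In IR64 they had 5.34, 14.5 and 6.74 per Mb in these classes. Per Mb of whole stretch both widths thus ranked the classes in the same order. The gap required of both lowers the shortest class. Inside the margins the longest class was lowest for wide far regions, and narrower ones were not counted that way. At least 2 wide far regions shared a stretch in 174 cases in Azucena, with up to 6 in 1 stretch, and in 21 cases in IR64, with up to 3.

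**Figure D3:**
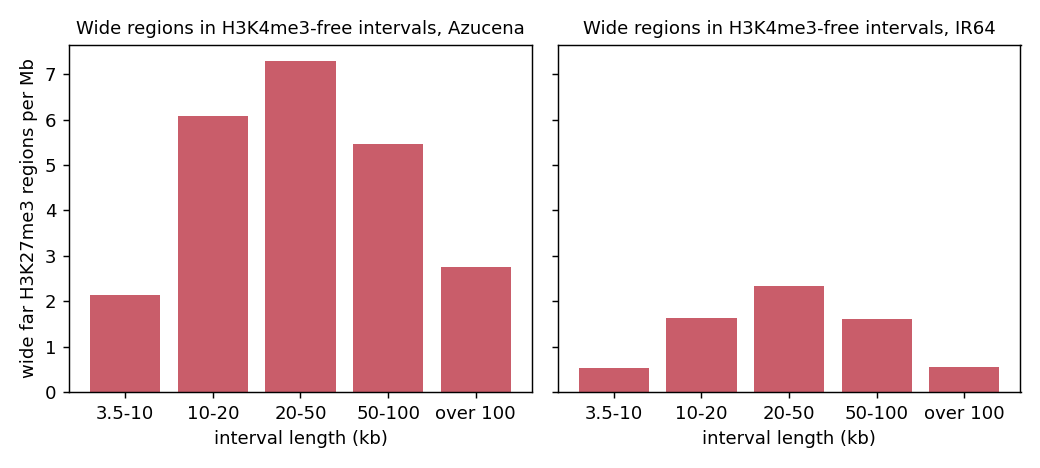
Wide far H3K27me3 regions per Mb (vertical axis) in stretches between neighbouring reproducible H3K4me3 regions, by the length of the stretch (horizontal axis, kb), in Azucena and IR64. Bars are 1 value per cultivar and have no error. Both cultivars are highest in the class from 20000 to 50000 bp, at 7.29 and 2.34 per Mb.

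Wide far regions had fewer close H3K27me3 neighbours than narrower far regions. The median gap to the nearest other reproducible H3K27me3 region was 5673 bp for wide far regions and 2177 bp for narrower ones in Azucena, and 10576.5 bp for wide and 7476 bp for narrower ones in IR64. Another H3K27me3 region lay within 10000 bp of 68.2% (66.0 to 70.3) of wide and 81.6% (80.7 to 82.5) of narrower far regions in Azucena. In IR64 this held for 47.8% (43.4 to 52.2) of wide and 57.6% (56.0 to 59.2) of narrower ones. Few close neighbours were not particular to wide far regions. Among wide regions near H3K4me3 the share was lower still, at 60.3% in Azucena and 42.8% in IR64. Their median gap was 7416.5 bp in Azucena and 12166.5 bp in IR64. In single libraries the shares were 71.8% and 73.1% of wide against 84.6% and 84.9% of narrower far peaks in Azucena, and 56.6% and 55.8% against 67.2% and 64.4% in IR64. The difference was -10.9 percentage points over 4 libraries and below 0 in all 4. It was -21.5 points within 5000 bp and -0.54 within 50000 bp, so it shrank with distance. Width and neighbours come from the same peak lists, and a stretch called as several peaks gives narrower regions that neighbour each other. The difference is therefore given as a description, without a test. With peaks up to 500 bp apart joined, the difference was -8.25 points.

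**Figure D4:**
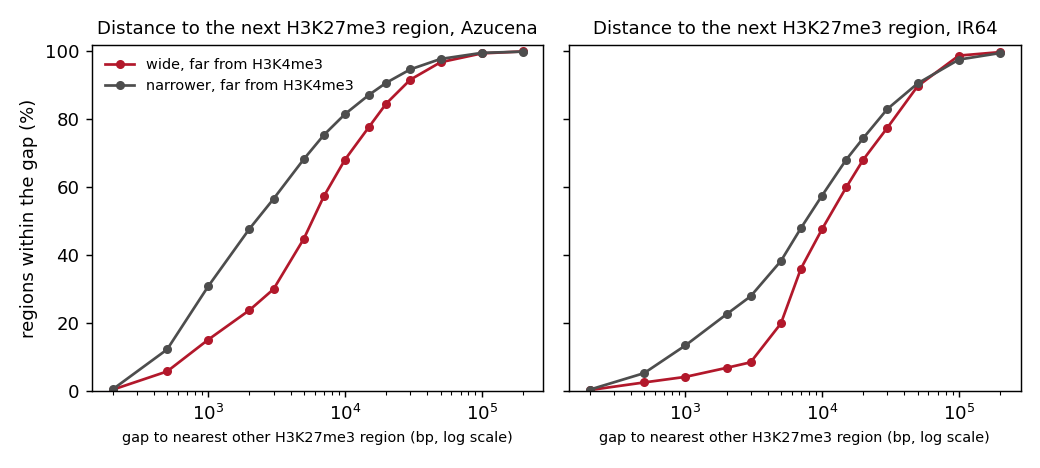
Cumulative share of wide and narrower far H3K27me3 regions (vertical axis, %) within a given gap to the nearest other reproducible H3K27me3 region (horizontal axis, bp, log scale) in Azucena and IR64. The curve of the wide far regions runs below that of the narrower ones from 200 to 50000 bp. At 30000 bp it is at 91.7% against 94.7% in Azucena and 77.6% against 83.1% in IR64, and at 50000 bp it lies within 1 percentage point of the narrower one.

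The nearest H3K27me3 neighbour of a wide far region was a narrower far region in 57.3% of cases in Azucena and 52.7% in IR64, where such regions made up 47.7% and 43.1% of all H3K27me3 regions. It was another wide far region in 11.3% of cases in Azucena and 5.51% in IR64, close to their shares of 11.6% and 5.96% among all H3K27me3 regions. Nearest neighbours that were themselves far were 196 wide and 992 narrower ones in Azucena, and 27 and 258 in IR64. Of all far regions 19.6% in Azucena and 12.2% in IR64 were wide. From one wide far region to the next the median gap was 53087.5 bp in Azucena and 223823 bp in IR64. Another wide far region lay within 10000 bp of 229 Azucena regions (13.2%) and 14 IR64 regions (2.86%). The closest pair of Azucena lay 124 bp apart on chromosome 9, at 14687437 to 14689197 and 14689322 to 14691288. The closest pair of IR64 lay 3082 bp apart on chromosome 6, at 10180299 to 10181887 and 10184970 to 10186522.

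When H3K27me3 regions at gaps up to 10000 bp were chained into runs, most wide far regions were the only one of their kind in a run. Wholly alone, with no other H3K27me3 region in the run, were 551 in Azucena (31.8%) and 256 in IR64 (52.2%). Narrower far regions were less often alone, since 81.6% in Azucena and 57.6% in IR64 had another within 10000 bp. Wide regions near H3K4me3 were more often alone, since 60.3% and 42.8% had one. Runs with 2 or more wide far regions numbered 172 in Azucena, holding 366 of them (21.1%), and 11 in IR64, holding 22 (4.49%). No run of IR64 held more than 2, while 19 in Azucena held at least 3 and 3 held 4. Azucena had 14872 H3K27me3 regions and 1732 wide far ones, against 8219 and 490 in IR64. The part of these numbers in the contrast was not tested.

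The 3 runs with 4 wide far regions in Azucena were on chromosomes 8, 10 and 7. The chromosome 8 run spanned 24347916 to 24407141, with 10 H3K27me3 regions that covered 29.7% of 59226 bp. Its 4 wide far regions were 1502 to 2070 bp long with folds of 2.86 to 5.03 over both replicates. The chromosome 10 run, 23388830 to 23429138, held 11 H3K27me3 regions, all of them far from H3K4me3, and covered 31.0% of its length. The chromosome 7 run, 23373984 to 23395103, was the densest of the 3, with 6 regions over 42.3% of 21120 bp and folds of 2.18 to 3.30 in its wide far regions. In IR64 the 3 runs ranked first were chromosome 3, 6112592 to 6155542 (9 regions), chromosome 4, 23265658 to 23299380 (5 regions), and chromosome 8, 902399 to 928584 (5 regions), each with 2 wide far regions. The chromosome 4 pair had the higher folds, 5.92 and 6.56 at 23265658 and 3.99 and 4.76 at 23297854.

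Density along the genome was 4.56 wide far regions per Mb in Azucena and 1.26 in IR64, with each chromosome's length set to its last called base, which is a lower bound. Chromosome 1 was densest in both cultivars, at 5.94 per Mb in Azucena (261 regions) and 1.77 in IR64 (78 regions). In Azucena chromosomes 10 and 12 were sparsest, at 3.63 and 3.64 per Mb. In IR64 chromosomes 5, 4 and 7 were sparsest, at 0.967, 0.982 and 0.985 per Mb. Relative to the genome, chromosome 8 lay at 0.864 in Azucena and 1.17 in IR64, and chromosome 4 at 1.05 in Azucena and 0.778 in IR64, differences that were not tested. Over 12 chromosomes the densities of the cultivars had r = 0.577 and rho = 0.385, as a description. The share of far regions that were wide ran from 16.7% on chromosome 11 to 22.1% on chromosome 1 in Azucena, and from 8.97% on chromosome 4 to 15.5% on chromosome 2 in IR64.

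Wide far regions of chromosome 11 lay farthest from H3K4me3 in both cultivars, with a median gap of 9049 bp in Azucena and 9333 bp in IR64. The shortest median gaps were 4536.5 bp on chromosome 2 in Azucena and 3955 bp on chromosome 3 in IR64. Over the 12 chromosomes the median gaps of the cultivars had r = 0.842 and rho = 0.748, again as a description. The number of H3K4me3 regions per chromosome enters each of these gaps.

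Along the chromosomes wide far regions were sparse in the middle. When each chromosome was cut into 10 equal parts, the fifth part held 95 Azucena regions (5.48%) and 22 IR64 regions (4.49%), the fewest in each cultivar. The eighth part held the most, 245 in Azucena (14.1%) and 75 in IR64 (15.3%). This was not particular to wide far regions. Narrower far regions were also fewest in the fifth part, with 5.92% in Azucena and 5.39% in IR64. They too were most numerous in the eighth, with 12.3% in Azucena and 14.0% in IR64. H3K4me3 regions were also few in the fifth part, with 6.47% in Azucena and 6.05% in IR64. Over the 120 parts of all chromosomes the counts of the cultivars had r = 0.749 and rho = 0.653, with parts of different assemblies set side by side by relative position. Wide far regions of the fifth part had a median gap to H3K4me3 of 10759 bp in Azucena and 10201.5 bp in IR64, and those of the last part 4761 bp in Azucena and 4484 bp in IR64. Narrower far regions had 9248 bp in Azucena and 8878 bp in IR64 in the fifth part. In the last part they had 4763 bp in Azucena and 4796 bp in IR64.

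Position was compared between wide and narrower far peaks in 3 ways. No test of them could pass a threshold of 0.05, since 4 libraries allow no exact sign-flip permutation p under 0.125. The first and last of the 10 parts of chromosomes held 24.1% and 24.4% of wide far peaks against 24.1% and 24.0% of narrower ones in Azucena replicates 1 and 2. In IR64 they held 25.3% and 21.3% of wide against 22.1% and 23.9% of narrower ones. The difference was 0.25 percentage points over 4 libraries, positive in 2 (exact sign-flip permutation p 0.75). H3K4me3-poor bins of 1000000 bp were the 33.3% of Azucena bins and 33.4% of IR64 bins with the fewest H3K4me3 regions. They held 21.5% and 20.4% of wide far peaks against 20.2% and 20.5% of narrower ones in Azucena. IR64 had 19.3% and 19.8% of wide against 29.6% and 21.9% of narrower ones. The difference of -2.77 points over 4 libraries was -0.36 without IR64 replicate 1. The H3K4me3 regions that define these bins were part of the choice of the regions, so no test is given. Within 2000000 bp of a chromosome end lay 14.2% and 14.3% of wide against 14.8% and 14.8% of narrower far peaks in Azucena, and 18.1% and 16.2% of wide against 13.2% and 14.2% of narrower ones in IR64. Wide far peaks were thus lower there in both Azucena libraries and higher in both IR64 libraries, by 4.92 and 2.05 points (exact sign-flip permutation p 0.5 over 4 libraries).

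**Figure D5:**
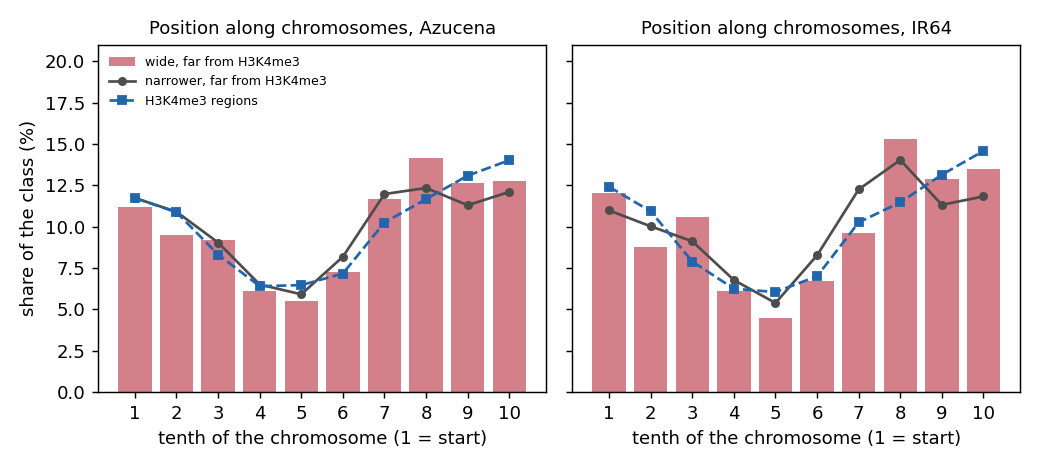
Share of wide far H3K27me3 regions (bars), narrower far regions (solid line) and H3K4me3 regions (dashed line) in each of 10 equal parts of the chromosomes (horizontal axis, 1 at the start), summed over 12 chromosomes, in Azucena and IR64. All 3 classes are lowest in parts 4 to 6. Wide and narrower far regions are both highest in part 8, at 14.1% and 12.3% in Azucena and 15.3% and 14.0% in IR64.

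Bins rich in H3K4me3 held more far regions than poor ones, wide and narrower alike. With bins ranked by H3K4me3 and split into 3 classes, there were from the poorest to the richest 2.86, 4.69 and 6.18 wide far regions per bin in Azucena and 0.758, 1.45 and 1.57 in IR64. Narrower far regions numbered 11.6, 22.2 and 22.4 per bin in Azucena and 6.10, 10.6 and 10.7 in IR64. Of 100 far regions, 19.9, 17.4 and 21.6 were wide in Azucena and 11.05, 12.06 and 12.85 in IR64, so the share of wide ones moved far less than their number. Set over H3K4me3 the order turned round, with 7.38, 6.46 and 5.95 wide far regions per 100 H3K4me3 regions in Azucena and 1.90, 1.87 and 1.42 in IR64. The bins were ranked by the number that divides this value, so it tends to fall along the ranking by construction. Of all bins, including the partial last ones, 27 of 387 in Azucena and 147 of 395 in IR64 held none. The variance of the number per bin was 2.13 times the mean in Azucena and 1.49 times in IR64. The fullest bins, singled out after their values were seen, were 27000001 to 28000000 on chromosome 2 in Azucena, with 18, and 10000001 to 11000000 and 32000001 to 33000000 on chromosome 1 in IR64, with 8 each. The widest Azucena region lay in the first of these.

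Regions lay densely on both sides of the thresholds. Far regions that reached 1500 bp by less than 50 bp numbered 141 in Azucena and 49 in IR64, and those up to 50 bp too narrow 154 in Azucena and 58 in IR64. Their median folds in replicates 1 and 2 were 4.21 and 4.00 inside and 3.88 and 4.07 outside in Azucena, and 4.54 and 4.55 inside and 4.68 and 4.18 outside in IR64. The narrowest wide far regions were chromosome 11, 18177013 to 18178512 in Azucena, and chromosome 6, 29352111 to 29353610 in IR64, each 1500 bp wide. The widest far regions just under the threshold were chromosome 10, 1793514 to 1795012 in Azucena, and chromosome 1, 5516124 to 5517622 in IR64. Nearest to the limit of the gap were chromosome 5, 29794524 to 29796191 in Azucena, at 1004 bp, and chromosome 8, 28518409 to 28520009 in IR64, at 1006 bp. The wide regions that just missed it were chromosome 2, 32778557 to 32780653 in Azucena, at 997 bp, and chromosome 5, 28474370 to 28475902 in IR64, at 998 bp.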

How the data were processed

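The 8 meiocyte CUT&Tag peak lists were used. The 4 flag-leaf CUT&Tag samples and the 8 BS-seq samples were not used here. Each library has 1 deposited list, which gives per peak a score, a fold (ratio) over local background, its significance as −log10 p and −log10 q, and the summit. Per the submitters' processing notes, which state no roles, fastp 0.20.1, Bowtie2, Bismark 0.22.3 and MACS2 2.1.0 were used. Builds, control libraries and duplicate filters are not given in the sources used here. The lowest −log10 q of a deposited list was 2.01 to 2.03, and a deposited table of the authors gave the count of peaks and the reads per library. Folds are the authors' and serve to describe regions within a list.

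Peaks that overlapped or touched were merged, and regions were taken by the rule in the text. A gap is the number of bases between 2 regions. Distances and classes were computed in Python 3.11.15 with numpy 2.4.6, pandas 2.3.3 and scipy 1.17.1. Fold and −log10 p were inverted together for summit coverage and local background, on the assumption that p is a Poisson upper tail and that summit and background each had 1 added before the fold was taken. Coverage came out whole, within 0.05, in 99.9% or more of the peaks of each library. The functions were tested on simulated data.

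Cultivars were compared by the 6 relabellings of 2 against 2 libraries. Wide and narrower far peaks were compared, where a test is given, by 16 sign flips over the 4 H3K27me3 libraries. The single-library values use the peaks of 1 H3K27me3 library against the reproducible H3K4me3 regions of its cultivar. Regions are not replicates. Chromosome lengths are the last called base. Contigs were left out. The named regions are the 5 of highest mean fold, the 5 widest and the 5 farthest from H3K4me3 per cultivar, the 3 runs with most wide far regions, and those next to each threshold. The rule, these lists and the tests were chosen with earlier results of these data known.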

Additional observations from a re-analysis of the deposited data

Results flagged for a closer look

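For 2 measures both libraries of Azucena lay on one side of no difference and both of IR64 on the other. The first was not tested, and the second was not shown to exceed the spread between libraries. The median gap of wide to that of narrower far peaks had a mean ratio of 1.01 in Azucena and 0.949 in IR64, a description, since the gap was part of the choice of the regions. In Azucena replicate 1 the medians were 5782.5 bp for wide and 5781 bp for narrower far peaks, and in IR64 replicate 2 they were 5539 and 5541 bp, so these libraries lie close to no difference. The share of wide far peaks within 2000000 bp of a chromosome end, minus that of narrower ones, was -0.593 percentage points in Azucena and 3.48 in IR64 (exact permutation p 0.333, the smallest possible). The wide shares behind it were 14.2% and 14.3% in Azucena and 18.1% and 16.2% in IR64, and the narrower shares 14.8% in both Azucena libraries and 13.2% and 14.2% in IR64.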

How the results depend on the processing

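Leaving out each replicate in turn gave 1067 to 1266 wide far regions in Azucena, 184 to 288 in IR64, an Azucena to IR64 ratio of 2.18 to 9.41, a distance ratio of 0.948 to 1.01 and a difference in the outer parts of chromosomes of -0.358 to 1.54 points. A width of 1000 bp gave 3958 regions in Azucena and 1497 in IR64, a width of 2000 bp 629 and 104 (ratio 6.05), and a gap over 5000 bp 972 and 280, since the setting itself redefines the regions. The ratio of cultivars stayed above 1 in all alternatives. It was 2.89 with folds of at least 4 and, chosen after seeing the data, 3.18 with the 10000 strongest H3K27me3 peaks per library. The settings for fold, −log10 q, joining and coverage acted on the peaks of both marks, so they also changed which regions were far. The fold ratio of wide to narrower regions fell below 1 with folds of at least 4 (0.976), where both classes were cut at that fold. It otherwise ran from 1.06 to 1.22. With a −log10 q of at least 5 its mean of 1.08 held 1.00 and 0.98 in the IR64 libraries. The distance ratio crossed 1 with peaks within 500 bp merged (1.02), a width of 2000 bp (1.02) and each replicate covering 50% of a region (1.01). The difference in the outer parts changed sign when −log10 q had to reach 5 (-0.435), a width of 1000 bp (-0.482), a gap over 5000 bp (-0.816), coverage of 50% (-0.268) and the 10000 strongest peaks (-0.0881). The cause was not tested. As a mean over libraries the neighbour difference stayed below 0 in all 16 alternatives and the H3K4me3-poor-bin difference in all 15. Single libraries did not all do so. The neighbour difference was 0.784 points in IR64 replicate 1 within 50000 bp and 2.60 in IR64 replicate 2 at a width of 2000 bp. In the main setting the poor-bin difference was 1.30 and -0.0427 points in Azucena replicates 1 and 2, and -10.3 and -2.06 in those of IR64. With a replicate block, libraries permuted within replicate number, the cultivar ratio of 3.53 had an exact permutation p of 0.5, the smallest possible. The block left every value as it was and changed no call. The replicate numbers are not stated to pair cultivars. The ratios of replicate 1 to 2 over 12 chromosomes had r = -0.193 between cultivars, and the crossed pairing, added later, also gave 0.5.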

Other observations

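The H3K27me3 lists of Azucena also held peaks on contigs outside chromosomes 1 to 12, 50 in replicate 1 and 53 in replicate 2. Of these, 1 in replicate 1 and 0 in replicate 2 were at least 1500 bp wide. The widest were 1640 and 1399 bp long. The IR64 H3K27me3 lists held 0 such peaks in both replicates.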
